A study of Mus musculus with 8 samples.

Results

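Glycolysis turns glucose into pyruvate and lactate in a fixed order of steps, and 10 genes of its enzymes, from hexokinase to lactate dehydrogenase, were described here in donor T cells with and without STAT3. The members were the rows of the deposited tables named Hk1, Hk2, Gpi1, Pfkl, Pfkp, Aldoa, Gapdh, Pgk1, Pkm and Ldha, which are 10 of 25078 gene rows. All 10 passed the filter on low counts, as did 12428 genes in all. Donor T cells were sorted from the spleen of BALB/c mice on day 6 after lethal irradiation and hematopoietic cell transplantation (HCT), a setting in which donor T cells attack the recipient's tissues (graft-versus-host disease). The WT groups came from C57BL/6 donors. The STAT3KO groups came from C57BL/6 donors in which a Cre transgene driven from the Cd4 locus sequences deletes floxed Stat3 in T cells. Recipients in all groups also received WT bone marrow that had been depleted of T cells. The paper reports severe graft-versus-host disease after WT T cells and only a mild form that passed after STAT3-deficient T cells. In its comparison of spleens it describes the latter recipients as free of the disease. Genotype and the recipient's disease therefore cannot be told apart here. CD4 and CD8 T cells were sorted by H-2Kb, TCRβ and CD4 or CD8, which gave 4 groups by cell type and genotype (WT CD4 and STAT3KO CD4, WT CD8 and STAT3KO CD8) of 2 libraries each. Every library pooled T cells of several recipients, so p-values measure the spread between pools and not between single animals.

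Glycolysis has an early phase, in which hexokinase and phosphofructokinase spend ATP to prime the sugar, and a late phase, in which phosphoglycerate kinase and pyruvate kinase return ATP. Lactate dehydrogenase then regenerates the NAD+ that the glyceraldehyde-3-phosphate dehydrogenase step consumes. Activated T cells are known for a strong rise in this pathway with release of lactate, and STAT3, Myc and HIF-1α are transcription factors that have been linked to its genes.

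The libraries held 20171396 to 23282757 counts, and 3 counts, which a count of 0 cannot be told from, were worth 0.129 to 0.149 CPM, the unit of counts brought to a common library size. Levels below are these CPM, further scaled by TMM, a factor that removes differences in composition between libraries, unless RPKM (which the authors also divided by the length of a gene's exons) is named. The summed levels of marker genes are CPM without this factor. Stat3 lay between 428 and 436 CPM in the 4 WT libraries and between 120 and 143 CPM in the 4 STAT3KO libraries. Cd4 was at 1360 CPM or more in every CD4 library and at 8.16 CPM or less in every CD8 library, while Cd8a was at 819 CPM or more in CD8 and at 16 CPM or less in CD4 libraries. The summed level of 8 macrophage markers, all detected, was 25.1 to 60.4 CPM in the libraries numbered 1 and 98.1 to 186 CPM in those numbered 2. The summed level of 9 digestive enzyme genes of the pancreas, all detected, was 73.7 CPM in the second STAT3KO CD8 library and 4.4 to 15.3 CPM in the others. Most of the sum in the others lay in Cela1, which was at 3.67 to 14.4 CPM, and at 5.95 CPM in the second STAT3KO CD8 library. Ctrb1 was at 31.4 CPM in that library and at 1.92 CPM or less in the others. Of 7 erythroid markers, the 4 haemoglobin genes (Hba-a1, Hba-a2, Hbb-bs and Hbb-bt) were listed at 0 in all libraries. The summed level of 7 T cell markers, all detected, was 4120 to 5690 CPM. The summed level of 5 B cell markers, all detected, was 107 and 96.1 CPM in the WT against 149 and 170 in the STAT3KO libraries of CD4 T cells, and 43 and 50.9 in the WT against 37.3 and 54.6 in the STAT3KO libraries of CD8 T cells. Of 5 NK cell markers, Klra8 and Klra4 were listed at 0 in all libraries. The sum was 19.8 to 29.6 CPM in CD4 and 61.1 to 88.5 CPM in CD8 libraries. Most of that difference lay in Eomes, at 2.27 to 13.5 CPM in CD4 and 37.9 to 70.2 CPM in CD8 libraries. Klrb1c was at 15.2 to 18.6 CPM in CD4 and 14.1 to 26.4 CPM in CD8 libraries, and Ncr1 held 0 to 5 counts. The sum of 8 neutrophil and myeloid progenitor markers, all detected, was 3.44 to 22.3 CPM. These sums moved with the groups or with single libraries, and their part in the results below was not tested.

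The enzymes spanned a wide range of levels. Per exon length, Ldha, which converts pyruvate to lactate, had the highest mean over the 8 libraries at 267 RPKM (range 194 to 348). Pkm, the pyruvate kinase of most tissues, followed at 200 RPKM (158 to 237) and Aldoa, the aldolase that splits fructose-1,6-bisphosphate, at 166 RPKM (137 to 197). Gpi1, which isomerises glucose-6-phosphate, had 102 RPKM (92.6 to 115). The platelet-type phosphofructokinase Pfkp had 89.8 RPKM (74.9 to 110) and the hexokinase Hk1 had 43.0 RPKM (37.1 to 52.0). The remaining members were far lower, with the liver-type phosphofructokinase Pfkl at 10.8 RPKM (9.21 to 12.3), the phosphoglycerate kinase Pgk1 at 9.46 RPKM (7.61 to 10.8), the hexokinase Hk2 at 8.73 RPKM (6.04 to 13.1) and Gapdh at 3.64 RPKM (1.97 to 5.59). The ranges of neighbours in this order were apart between Aldoa and Gpi1, Pfkp and Hk1, Hk1 and Pfkl, and Hk2 and Gapdh, and overlapped for the other neighbours. Ldha was nevertheless above Pkm in 8 of 8 libraries, and Pkm above Aldoa in 7 of 8.

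Several of these genes have near-identical copies elsewhere in the genome, so the levels of Gapdh and Pgk1 are uncertain. Of the 51-base windows of Gapdh transcripts, 51 bases being the read length, 78.2% also occurred in transcripts of other annotated genes, among them 201 processed pseudogenes. The share was 67.9% for Pgk1, 35.6% for Pkm, 24.7% for Gpi1, 16.2% for Pfkp, 15.2% for Ldha and 10.7% for Aldoa. It was 2.31% for Hk1, 0.0272% for Pfkl and 0% for Hk2. Matches on either strand were counted. The shared windows of Pfkp and Hk1 occurred only in Pitrm1 and Hk1os, genes that overlap them on the opposite strand, and in 0 processed pseudogenes. How reads that match several genes were counted is not given in the sources used here, and the part of such reads in the low levels was not tested. Dividing RPKM by the share of unshared windows, an alternative chosen after the levels were seen, gave 29.5 RPKM for Pgk1 and 16.7 RPKM for Gapdh, which placed both above Pfkl (10.8) and Hk2 (8.73), and 6 of 10 members kept their rank. Exon bases overlapped with a gene on the opposite strand for 11.5% of Gpi1 (Gm26762), 5.58% of Pfkp (Pitrm1), 1.84% of Hk1 (Hk1os), 1.65% of Gapdh (Iffo1) and 0.859% of Aldoa (Fam57b). On the same strand, 15.3% of the exon bases of Pkm overlapped Gm49759. Hk2, Pfkl, Pgk1 and Ldha had no such overlap.

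**Figure D1:**
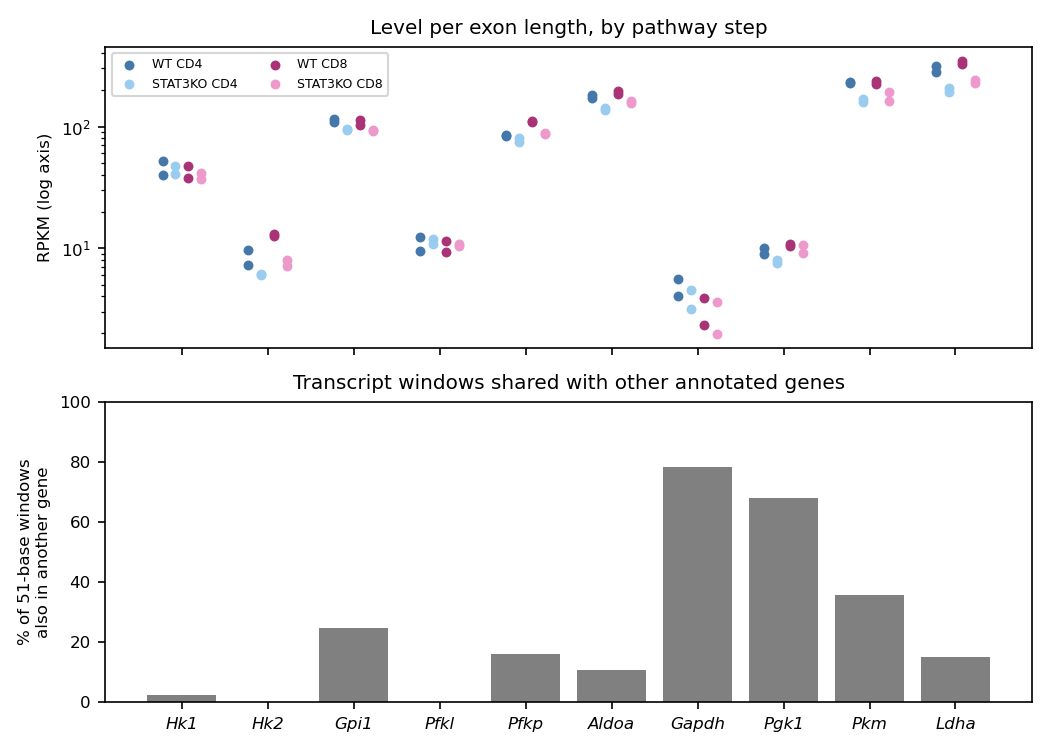
RPKM of the 10 enzymes in each of the 8 libraries in order of the pathway steps (upper panel, log axis, points coloured by group) and the percentage of 51-base transcript windows that also occur in another annotated gene (lower panel). Ldha, Pkm and Aldoa lie highest, and the lowest member, Gapdh, is also the one with the largest shared percentage (78.2%).

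The members together took 0.251% and 0.254% of the counts of the WT CD4 libraries, 0.197% and 0.199% of those of STAT3KO CD4, and in CD8 T cells 0.273% and 0.277% for WT against 0.215% and 0.209% for STAT3KO. In RPKM, the members summed to 979 and 987 in the WT against 752 and 744 in the STAT3KO libraries of CD4 T cells, and 1080 and 1030 in the WT against 841 and 798 in the STAT3KO libraries of CD8 T cells. Both STAT3KO libraries were below both WT libraries within each cell type, and both CD8 libraries above both CD4 libraries within each genotype. In bulk RNA of sorted cells, a smaller share of cells expressing a gene and less RNA per cell cannot be told apart.

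**Figure D2:**
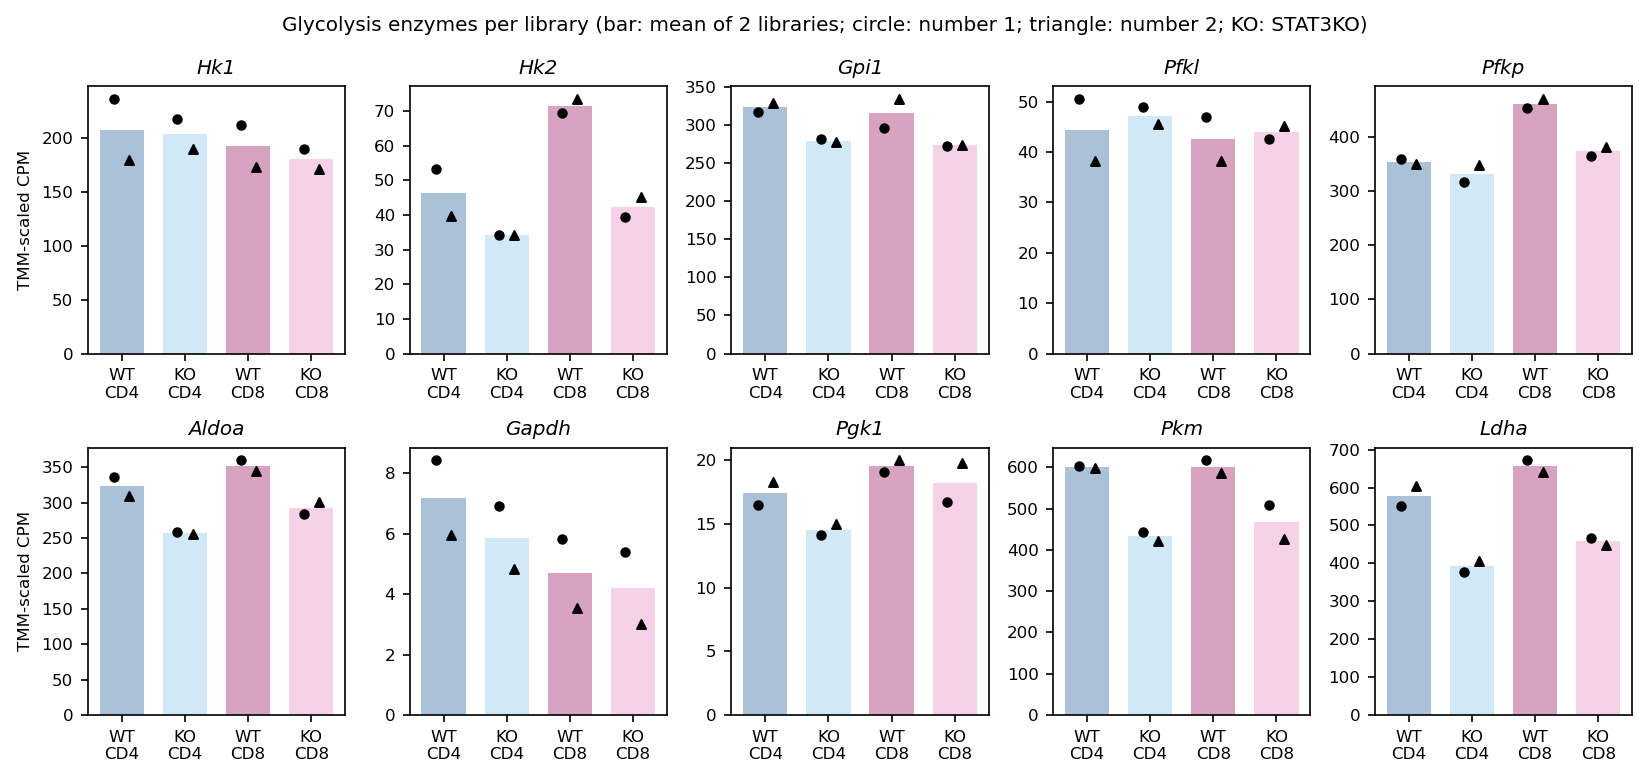
TMM-scaled CPM of each enzyme by group; bars are means of 2 libraries, circles the libraries numbered 1 and triangles those numbered 2. The STAT3KO points of Ldha and Pkm lie below the WT points in both cell types, whereas the points of Hk1 and Pfkl overlap between genotypes.

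The comparison of STAT3KO with WT asked how the pathway differed between donor T cells without and with STAT3. In CD4 T cells the 2 last enzymes, Pkm and Ldha, were lower in STAT3KO, and no member was higher. The calls, 2 of 10 members lower, stand beside 5.08% of all tested genes called lower and 6.54% called higher (edgeR quasi-likelihood test, Benjamini-Hochberg adjusted p under 0.05 over all genes). In CD8 T cells 0 of 10 members were called, beside 0.732% of genes called lower and 1.34% called higher. There, 5 members (Hk2, Pfkp, Aldoa, Pkm and Ldha), all with lower means in STAT3KO, had an unadjusted p under 0.05, as did 19.3% of genes, and the DESeq2 Wald test called 4 of them lower (Hk2, Pfkp, Pkm and Ldha), beside 2.83% of genes. Averaged over both cell types, a contrast that uses all 8 libraries, Hk2, Aldoa, Pkm and Ldha were lower and none was higher, beside 8.48% of genes lower and 10.8% higher. STAT3KO libraries lay below WT libraries without overlap for 7 members in CD4 T cells (25% of genes) and for 6 in CD8 T cells (24.8% of genes). The 6 in CD8, namely Hk2, Gpi1, Pfkp, Aldoa, Pkm and Ldha, were so in both cell types, as were 14.5% of genes.

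The first step is shared by 2 hexokinases, which trap glucose in the cell as glucose-6-phosphate. Hk2 is the inducible isozyme and stands on chr6:82725027-82774454 of mm10 (minus strand). It was at 53.2 and 39.6 CPM in the WT against 34.1 and 34.1 in the STAT3KO libraries of CD4 T cells, and 69.5 and 73.6 in the WT against 39.4 and 45.2 in the STAT3KO libraries of CD8 T cells. The STAT3KO libraries were below the WT libraries of the same cell type, and the WT CD8 libraries were the highest of all. The log2 fold change of STAT3KO against WT was -0.44 ± 0.15 (SE) in CD4 T cells (edgeR adjusted p = 0.106), whereas it was -0.76 ± 0.15 in CD8 T cells (adjusted p = 0.0525). Without the second WT CD4 library the change in CD4 T cells passed (-0.65, adjusted p = 0.0438). Its averaged change was -0.60 ± 0.11 (edgeR adjusted p = 0.00901), the largest fall among the members. In CD4 T cells the difference between libraries of the same number was uneven, with log2 ratios of -0.64 for number 1 and -0.22 for number 2, whereas in CD8 T cells they were -0.82 and -0.70.

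Hk1, the hexokinase that most cells keep at a steady level (chr10:62268855-62379908, minus strand), was at 236 and 179 CPM in the WT against 217 and 189 in the STAT3KO libraries of CD4 T cells, and 212 and 173 in the WT against 189 and 171 in the STAT3KO libraries of CD8 T cells. Its groups overlapped in both cell types. The averaged log2 fold change was -0.06 ± 0.12 (edgeR adjusted p = 0.753).

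At the next step Gpi1 (chr7:34201327-34230336, minus strand) was at 317 and 329 CPM in the WT against 281 and 277 in the STAT3KO libraries of CD4 T cells, and 296 and 334 in the WT against 272 and 274 in the STAT3KO libraries of CD8 T cells. Groups did not overlap by genotype in either cell type, but the averaged change of -0.21 ± 0.07 did not pass the test (edgeR adjusted p = 0.0848). It passed by DESeq2 (adjusted p = 0.0243) and by limma on log2(RPKM + 1) (0.0474).

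Phosphofructokinase commits the sugar to glycolysis. Pfkp (chr13:6579874-6648771, minus strand) was at 359 and 349 CPM in the WT against 317 and 347 in the STAT3KO libraries of CD4 T cells, and 452 and 470 in the WT against 365 and 381 in the STAT3KO libraries of CD8 T cells. The WT CD8 libraries stood above all others, and in CD4 T cells the closest libraries of the genotypes were at 349 and 347 CPM. The log2 fold change was -0.09 ± 0.10 in CD4 (edgeR adjusted p = 0.621), -0.31 ± 0.10 in CD8 (adjusted p = 0.153) and -0.20 ± 0.07 on average (adjusted p = 0.0906). The averaged change passed by DESeq2 (adjusted p = 0.0228) and by limma on log2(RPKM + 1) (0.0415) and log2(RPKM + 0.1) (0.0459), and that in CD8 T cells by DESeq2 (0.0345).

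Pfkl (chr10:77986949-78009807, minus strand) was the only member whose fitted change was above 0 in both cell types, at 0.09 ± 0.16 in CD4 and 0.05 ± 0.16 in CD8 T cells. Its libraries ranged from 38.2 to 50.6 CPM and overlapped between genotypes. The averaged change was 0.07 ± 0.11 (edgeR adjusted p = 0.720), and its sign turned without the second WT CD4 library (-0.0319) or the second WT CD8 library (-0.0113). The other 9 members had a negative log2 fold change in both cell types, as had 36.4% of genes.

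Aldolase cleaves the primed hexose into triose phosphates. Aldoa (chr7:126795234-126800447, minus strand) was at 337 and 309 CPM in the WT against 259 and 256 in the STAT3KO libraries of CD4 T cells, and 360 and 345 in the WT against 284 and 301 in the STAT3KO libraries of CD8 T cells. Genotypes did not overlap in either cell type. The log2 fold change was -0.32 ± 0.10 in CD4 (edgeR adjusted p = 0.0819), -0.27 ± 0.10 in CD8 (adjusted p = 0.208) and -0.30 ± 0.07 on average (adjusted p = 0.0269). DESeq2 also called it in CD4 T cells (adjusted p = 0.0132). The averaged call held in 8 of 15 alternatives and was lost without any one of the libraries other than the second WT CD4 library (adjusted p up to 0.0982).

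In the late phase, the glyceraldehyde-3-phosphate dehydrogenase gene Gapdh (chr6:125161852-125166467, minus strand) had the lowest and least even values. It was at 8.43 and 5.95 CPM in the WT against 6.90 and 4.84 in the STAT3KO libraries of CD4 T cells, and 5.84 and 3.54 in the WT against 5.40 and 3.02 in the STAT3KO libraries of CD8 T cells. The library numbered 1 was the higher in every group, and genotypes overlapped. The averaged log2 fold change was -0.22 ± 0.26 (edgeR adjusted p = 0.596), with the widest standard error of the members.

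Pgk1 (chrX:106187100-106203699, plus strand), which makes the first ATP of the late phase, was at 16.5 and 18.3 CPM in the WT against 14.1 and 15 in the STAT3KO libraries of CD4 T cells, and 19.1 and 20.0 in the WT against 16.7 and 19.8 in the STAT3KO libraries of CD8 T cells. Genotypes were apart in CD4 and overlapped in CD8 T cells. The averaged log2 fold change was -0.18 ± 0.09 (edgeR adjusted p = 0.231).

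Pkm (chr9:59656368-59679375, plus strand) encodes the pyruvate kinases PKM1 and PKM2 by alternative splicing, which counts per gene do not separate. It was at 603 and 597 CPM in the WT against 444 and 422 in the STAT3KO libraries of CD4 T cells, and 617 and 586 in the WT against 508 and 427 in the STAT3KO libraries of CD8 T cells. All STAT3KO libraries were below all WT libraries. The log2 fold change was -0.47 ± 0.11 in CD4 (27.8% lower, edgeR adjusted p = 0.0367), -0.36 ± 0.11 in CD8 (adjusted p = 0.139) and -0.42 ± 0.08 on average (adjusted p = 0.0119). The averaged call was lost only without the second STAT3KO CD4 library, among 15 alternatives (adjusted p = 0.057). The call in CD4 T cells held in 9 of 16 alternatives and was lost in the fit of the 4 CD4 libraries alone (adjusted p = 0.0669) and without any one of the 4 CD4 libraries or either WT CD8 library (adjusted p from 0.0533 to 0.205).

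Ldha (chr7:46845804-46855627, plus strand) was at 550 and 603 CPM in the WT against 378 and 407 in the STAT3KO libraries of CD4 T cells, and 672 and 640 in the WT against 468 and 448 in the STAT3KO libraries of CD8 T cells. The 4 STAT3KO libraries were below the 4 WT libraries irrespective of cell type. The log2 fold change was -0.55 ± 0.10 in CD4 (31.9% lower, edgeR adjusted p = 0.0147), while that in CD8 T cells was -0.52 ± 0.10 (30.2% lower, adjusted p = 0.0523). The averaged change was -0.54 ± 0.07 (edgeR adjusted p = 0.00343). Log2 ratios between libraries of the same number were close to each other, at -0.54 and -0.57 in CD4 and at -0.52 and -0.52 in CD8 T cells. The averaged calls of Ldha and Hk2 held in 15 of 15 alternatives. The call of Ldha in CD4 T cells held in 12 of 16, and was lost in the fit of the 4 CD4 libraries alone (adjusted p = 0.0511) and without the second WT CD4 library (0.0754), the first STAT3KO CD4 library (0.106) or the second STAT3KO CD4 library (0.0781).

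**Figure D3:**
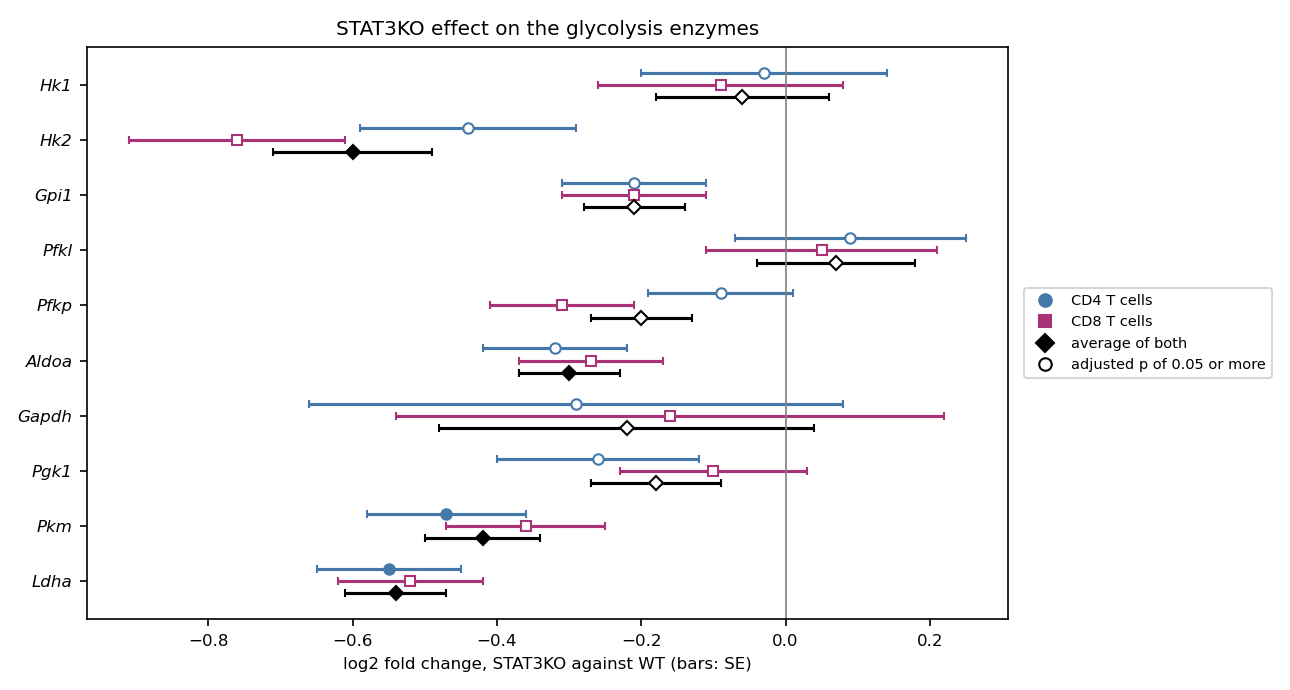
Log2 fold change of STAT3KO against WT with its standard error for each enzyme in CD4 T cells (circles), CD8 T cells (squares) and on average (diamonds); filled symbols passed the test. The averaged estimates run from -0.60 for Hk2 to 0.07 for Pfkl, and the 2 cell types lie close together for Ldha and Gpi1.

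The members had a median log2 fold change of -0.28 for CD4 and -0.24 for CD8 T cells, where the median of all genes was 0.017 and -0.0071. Whether the STAT3KO effect differed between CD8 and CD4 T cells was tested as an interaction term, which edgeR called for 0 of 10 members and for 0% of genes. At an unadjusted p under 0.05 it counted 0 members and 7.9% of genes, and the DESeq2 Wald test called 0 members and 1.9% of genes. The largest estimate was that of Hk2 (-0.31 ± 0.21, edgeR adjusted p = 0.876), followed by Pfkp (-0.22 ± 0.14, adjusted p = 0.861).

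The bases before the gene starts are shown for 4 members with different outcomes in the STAT3KO tests: Ldha and Hk2, the averaged calls that held in every alternative, Pgk1, which was not called, and Pfkl, whose change was above 0. The sequences are RefSeq promoter windows on GRCm38.p6, the same coordinates as mm10, each of 250 bases up to the base before the gene start and written 5′ to 3′ on the gene's strand. Capitals mark ACGTG on either strand (read as ACGTG or CACGT), a form of the core of the hypoxia response element to which HIF-1 binds. They also mark CACGTG, the E-box to which Myc binds and which contains that form. The windows are chr7:46845554-46845803 (plus) for Ldha, chr6:82774455-82774704 (minus) for Hk2, chrX:106186850-106187099 (plus) for Pgk1 and chr10:78009808-78010057 (minus) for Pfkl.
Ldha: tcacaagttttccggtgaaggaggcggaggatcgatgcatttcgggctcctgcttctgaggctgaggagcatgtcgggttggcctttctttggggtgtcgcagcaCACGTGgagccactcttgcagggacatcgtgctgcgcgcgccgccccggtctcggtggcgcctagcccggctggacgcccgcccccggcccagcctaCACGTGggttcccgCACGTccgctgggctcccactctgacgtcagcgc
Hk2: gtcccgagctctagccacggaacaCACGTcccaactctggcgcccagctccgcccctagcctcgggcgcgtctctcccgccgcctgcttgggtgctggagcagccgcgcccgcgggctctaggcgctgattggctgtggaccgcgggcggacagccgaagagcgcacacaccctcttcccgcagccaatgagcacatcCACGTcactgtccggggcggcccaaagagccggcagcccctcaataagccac
Pgk1: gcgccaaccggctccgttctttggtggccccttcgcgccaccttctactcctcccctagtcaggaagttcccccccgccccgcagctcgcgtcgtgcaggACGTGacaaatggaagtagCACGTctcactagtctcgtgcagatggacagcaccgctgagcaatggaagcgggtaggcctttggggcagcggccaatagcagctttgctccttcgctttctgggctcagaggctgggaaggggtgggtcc
Pfkl: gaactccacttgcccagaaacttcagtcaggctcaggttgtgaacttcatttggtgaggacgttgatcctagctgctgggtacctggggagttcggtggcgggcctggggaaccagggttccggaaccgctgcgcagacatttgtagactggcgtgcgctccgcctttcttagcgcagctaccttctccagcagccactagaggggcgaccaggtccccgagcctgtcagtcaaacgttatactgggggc
The Ldha window shown held CACGTG at 2 places and CACGT at another. The windows of Hk2 and Pgk1 each held ACGTG on either strand at 2 places without the E-box. That of Pfkl held neither. GCGTG, another form of that core, was neither marked nor counted, and it occurs in the Pfkl window. It also occurs in windows of Hk1, Pfkp and Gapdh, members in which ACGTG was not found. Over all 15 windows of the 10 members, ACGTG was found for 5 members (Hk2, Aldoa, Pgk1, Pkm and Ldha) in 6 windows, and the E-box for Ldha alone. The 2 Aldoa windows with ACGTG overlap and hold the same site, and Aldoa, Ldha and Pkm each had another window without it. ACGTG was in 16.6% of all 32851 windows and in 21.5% of the 12457 windows of tested genes, and the E-box in 6.02% and 8.16%. The STAT motif TTCNNNGAA was in 0 of the 15 windows, in 7.02% of all windows and in 5.98% of those of tested genes. These matches describe letters in the windows, and binding was not measured.

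The comparison of CD8 with CD4 T cells shares its libraries with the comparison of genotypes. In WT, Hk2 and Pfkp were higher in CD8 T cells and no member was lower, beside 12.2% of genes called higher and 11.6% called lower. Hk2 differed by 0.62 ± 0.15 on the log2 scale (1.54-fold, edgeR adjusted p = 0.0212) and Pfkp by 0.38 ± 0.10 (1.30-fold, adjusted p = 0.0301). In STAT3KO, edgeR called 0 of 10 members, beside 5.84% of genes higher and 6.67% lower. The DESeq2 Wald test also called 0 members there (16.9% of genes), and 1 member, Pgk1 (0.33 ± 0.13, adjusted p = 0.161), had an unadjusted p under 0.05, as had 27.5% of genes. Hk2 differed there by 0.31 ± 0.15 (adjusted p = 0.237) and Pfkp by 0.17 ± 0.10 (adjusted p = 0.343). Averaged over genotypes, Hk2 (0.47 ± 0.11, adjusted p = 0.013) and Pfkp (0.27 ± 0.07, adjusted p = 0.0216) were the members called, beside 16.1% of genes called higher and 16.6% lower. Both calls in WT were lost in the fit of the 4 WT libraries alone (adjusted p = 0.0623 for Hk2 and 0.0842 for Pfkp). That of Hk2 was also lost without the second WT CD4 library (0.0885), the first WT CD8 library (0.0734) or the second (0.0901), and that of Pfkp with any single library left out (0.0558 to 0.14) and with no filter on low counts (0.0603). The averaged call of Hk2 held in 15 of 15 alternatives, and that of Pfkp in 8 of 15, being lost without any one library other than the first WT CD4 library (adjusted p up to 0.0996). The DESeq2 Wald test called Ldha as well on average (0.20, adjusted p = 0.0248).

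Groups of the 2 cell types did not overlap in WT for 5 members that were higher in CD8 T cells (29.2% of genes) and for 1 that was lower (30% of genes), and in STAT3KO for 5 that were higher (29.6%) and 2 that were lower (28.7%). Pkm had nearly the same level in WT CD8 and WT CD4 T cells (602 ± 22.4 and 600 ± 4.31 CPM, mean ± SD, n = 2, edgeR adjusted p = 0.984), and its sign there turned with the processing. Gapdh had the lower mean in CD8 T cells, with log2 differences of -0.62 ± 0.37 in WT (edgeR adjusted p = 0.278) and -0.48 ± 0.38 in STAT3KO (adjusted p = 0.469). Between libraries of the same number the log2 ratios of Gapdh were -0.53 and -0.75 in WT and -0.35 and -0.68 in STAT3KO, all below 0.

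Because RPKM is scaled by exon length, isozymes of a step can be set side by side. Hk2 made up 15.6% and 15.4% of the summed RPKM of Hk1 and Hk2 in the WT against 11.4% and 12.9% in the STAT3KO libraries of CD4 T cells, and 21.2% and 25.8% in the WT against 14.6% and 17.7% in the STAT3KO libraries of CD8 T cells. The share was lower in both STAT3KO libraries than in both WT libraries of each cell type. The mean difference of STAT3KO from WT was -5.34 percentage points and that of CD8 from CD4 was 6.03, each with the smallest p that the 36 arrangements of this design allow (exact stratified permutation test, two-sided, p = 0.0556, adjusted p = 0.0741 over 4 such tests). Pfkp made up 83.6% and 85.6% of the summed RPKM of Pfkl, Pfkp and Pfkm in the WT against 83.3% and 85.0% in the STAT3KO libraries of CD4 T cells, and 88.6% and 90.0% in the WT against 87.3% and 87.5% in the STAT3KO libraries of CD8 T cells. Its share was 3.99 points higher in CD8 than in CD4 T cells (exact p = 0.0556, adjusted p = 0.0741) and 1.18 points apart between genotypes (difference -1.18, exact p = 0.222, adjusted p = 0.222).

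**Figure D4:**
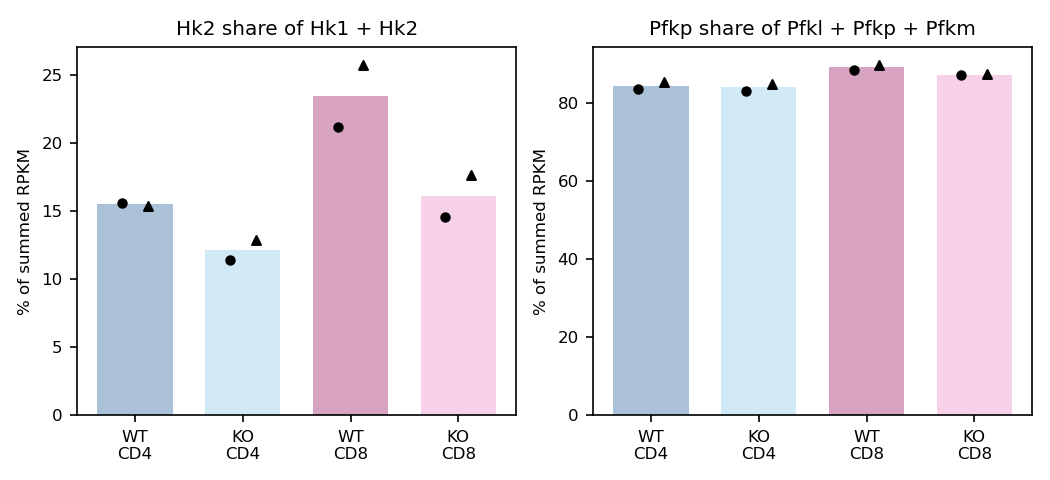
Share of Hk2 in the summed RPKM of Hk1 and Hk2 (left) and of Pfkp in that of Pfkl, Pfkp and Pfkm (right) by group; bars are means of 2 libraries, circles the libraries numbered 1 and triangles those numbered 2. The Hk2 share is highest in WT CD8 (21.2% and 25.8%) and lowest in STAT3KO CD4 libraries (11.4% and 12.9%), while the Pfkp share stays between 83.3% and 90.0%.

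The other glycolysis enzymes, a list of 19 genes of which 11 passed the filter, had 2 called lower in STAT3KO CD4 T cells, 0 called in CD8 T cells and 7 called lower on average, with 0 higher. The counts of calls stand beside the shares of all genes given above for these comparisons. Their median log2 fold change was -0.43 in CD4 T cells and -0.38 in CD8 T cells. Aldoc, an aldolase isozyme, was at 7.38 and 7.14 CPM in WT CD4 and at 2.15 and 2.65 CPM in STAT3KO CD4 libraries (-1.59 ± 0.24, edgeR adjusted p = 0.00678). In CD8 T cells its genotypes overlapped, at 1.64 and 1.68 CPM in WT and 1.78 and 1.44 CPM in STAT3KO libraries. The ADP-dependent glucokinase Adpgk was the other call in CD4 T cells (-0.43 ± 0.11, edgeR adjusted p = 0.0409). On average, Aldoc (-0.82 ± 0.17, adjusted p = 0.0167), Adpgk (-0.37 ± 0.08, adjusted p = 0.0158) and the muscle enolase Eno3 (-0.47 ± 0.12, adjusted p = 0.0334) were lower by edgeR. The triose phosphate isomerase Tpi1 (-0.31 ± 0.07, adjusted p = 0.0218), the phosphoglycerate mutase Pgam1 (-0.51 ± 0.15, adjusted p = 0.0474), the enolase isozyme Eno2 (-1.31 ± 0.36, adjusted p = 0.0402) and the lactate dehydrogenase B subunit Ldhb (-1.01 ± 0.24, adjusted p = 0.0232) were the others. Some of these had low counts per library, with 5 to 24 for Eno2, 11 to 177 for Ldhb and 56 to 134 for Pgam1. Of the 51-base windows, 41.4% for Pgam1 and 26.3% for Ldhb occurred in other genes. Eno3 overlapped between genotypes in CD4 T cells, at 8.03 and 11.1 CPM in WT and 8.4 and 8.5 CPM in STAT3KO libraries. In CD8 T cells it was at 46.2 and 38.5 CPM in WT and 24.4 and 25.7 CPM in STAT3KO libraries. Eno1, the main enolase of most cells, was at 67.1 and 73.8 CPM in the WT against 79.2 and 87.5 in the STAT3KO libraries of CD4 T cells, and 106 and 104 in the WT against 93.8 and 96.6 in the STAT3KO libraries of CD8 T cells. Its averaged change was 0.05 ± 0.07 (edgeR adjusted p = 0.676), and 71.9% of its windows occurred in other genes. Hk3, a hexokinase of myeloid cells, was between 0.549 and 4.39 CPM, with every library numbered 2 above its partner numbered 1.

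In the comparison of WT CD8 with WT CD4 T cells the other glycolysis enzymes were called in both directions, with 3 higher and 4 lower. Eno3 (2.15 ± 0.17), Eno1 (0.58 ± 0.10) and Tpi1 (0.37 ± 0.10) were higher, with edgeR adjusted p between 0.000235 and 0.032. Ldhb (-2.26 ± 0.32), Aldoc (-2.12 ± 0.25), the muscle-type phosphofructokinase Pfkm (-0.74 ± 0.18) and Adpgk (-0.39 ± 0.11) were lower, with edgeR adjusted p between 0.000908 and 0.0369.

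None of the 4 glucose and lactate transporters was called between genotypes by edgeR in CD4, CD8 or the average, and their averaged changes were 0.04 ± 0.07 for the glucose transporter Slc2a1, -0.09 ± 0.08 for Slc2a3, -0.04 ± 0.12 for the lactate transporter Slc16a1 and -0.25 ± 0.16 for Slc16a3. Slc2a3 was higher in WT CD8 than in WT CD4 T cells (0.72 ± 0.12, edgeR adjusted p = 0.00373). Of 9 tested regulators of glycolytic flux, Pdk2, which restrains the entry of pyruvate into mitochondria, was lower on average (-1.45 ± 0.23, edgeR adjusted p = 0.00599), as was Tigar, which lowers fructose-2,6-bisphosphate (-0.39 ± 0.08, adjusted p = 0.0131). Pfkfb3 (-0.18 ± 0.08, adjusted p = 0.17) and Pdk1 (-0.19 ± 0.18, adjusted p = 0.517) did not pass. In CD8 against CD4 T cells averaged over genotypes, the pyruvate dehydrogenase kinases Pdk2 (0.89 ± 0.23, edgeR adjusted p = 0.0203) and Pdk3 (0.41 ± 0.13, adjusted p = 0.0417) were higher, and Pfkfb4 (-0.93 ± 0.18, adjusted p = 0.00679) and Txnip, which restrains glucose uptake (-0.47 ± 0.12, adjusted p = 0.0195), were lower.

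Among 6 tested transcription regulators, Hif1a, the oxygen-sensitive subunit of HIF-1, was at 1820 and 1980 CPM in the WT against 921 and 949 in the STAT3KO libraries of CD4 T cells, and 631 and 633 in the WT against 533 and 665 in the STAT3KO libraries of CD8 T cells. It was lower in STAT3KO CD4 T cells (-1.02 ± 0.12, edgeR adjusted p = 0.00269), and its change in CD8 T cells was -0.08 ± 0.12 (adjusted p = 0.799), but the difference between these effects did not pass (0.95 ± 0.17, adjusted p = 0.13). Myc was at 167 and 65.3 CPM in the WT against 96 and 42.4 in the STAT3KO libraries of CD4 T cells, and 139 and 75.8 in the WT against 76.7 and 48.7 in the STAT3KO libraries of CD8 T cells. Libraries numbered 1 were the higher in each group, genotypes overlapped, and its averaged change was -0.76 ± 0.38 (edgeR adjusted p = 0.204). Between libraries of the same number, the log2 ratios of Myc were -0.80 and -0.62 in CD4 and -0.85 and -0.64 in CD8 T cells, so that STAT3KO was below WT in each of the 4 pairs. Mlxip, a glucose-sensing factor, was lower in CD8 than in CD4 T cells averaged over genotypes (-0.31 ± 0.07, edgeR adjusted p = 0.015). Of 13 tested hypoxia-responsive genes outside glycolysis, the prolyl hydroxylase Egln3 was lower in both cell types (-2.68 ± 0.25, adjusted p = 0.00139 in CD4, and -1.76 ± 0.26, adjusted p = 0.0257 in CD8 T cells). Ndrg1 was lower in CD8 T cells (-0.88 ± 0.13, edgeR adjusted p = 0.0256), and Bnip3l was higher on average (0.40 ± 0.11, adjusted p = 0.0429). The median averaged change of this list was -0.046. In WT CD8 against WT CD4 T cells, Ndrg1 (1.54 ± 0.13, edgeR adjusted p = 0.000283) and Mxi1 (0.67 ± 0.17, adjusted p = 0.0245) were higher and Egln3 was lower (-2.06 ± 0.24, adjusted p = 0.000921).

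Branches of glucose metabolism held calls in both directions. Of 8 tested gluconeogenesis and hexose phosphate enzymes, the galactose mutarotase Galm (1.10 ± 0.21, edgeR adjusted p = 0.0112) and the mitochondrial phosphoenolpyruvate carboxykinase Pck2 (0.61 ± 0.15, adjusted p = 0.0301) were higher on average and G6pc3 was lower (-0.27 ± 0.08, adjusted p = 0.0498). Of 8 pentose phosphate genes, Rpe was higher (0.49 ± 0.10, edgeR adjusted p = 0.0161), and of 9 genes of pyruvate entry into mitochondria 0 were called by edgeR on average. In WT CD8 against WT CD4 T cells, 3 pentose phosphate genes, G6pdx (0.51 ± 0.11), Rpia (0.72 ± 0.18) and Tkt (0.65 ± 0.13), were higher, with edgeR adjusted p between 0.0106 and 0.0249, and the pyruvate carrier subunit Mpc1 was lower (-1.02 ± 0.26, adjusted p = 0.0264). The phosphoglucomutase row Pgm1 was also higher there (0.55 ± 0.15, edgeR adjusted p = 0.0299).

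**Figure D5:**
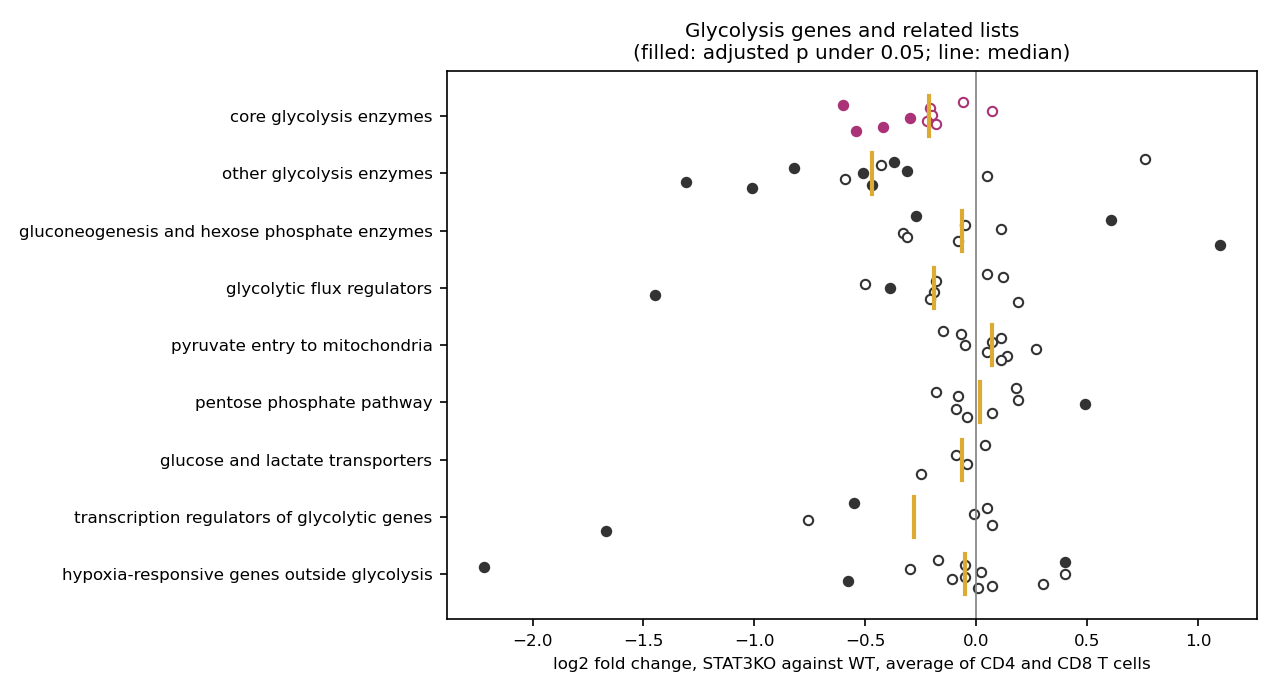
Averaged log2 fold change of STAT3KO against WT for the tested genes of each list, 1 point per gene, filled where edgeR's adjusted p was under 0.05; the yellow line is the list's median. The core enzymes (median -0.22) and the other glycolysis enzymes (median -0.47) hold called genes on the lower side, whereas the lists of transport and pyruvate entry hold none.

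The members differed among themselves in their profile over the 8 libraries. Profiles were compared by the root mean square difference of log2 CPM centred on each gene's mean. Hk1 was nearest to Pfkl (0.0943) and Pfkl to Hk1, both members whose genotypes overlapped. Ldha was nearest to Pkm (0.122), and Pkm to Aldoa (0.12). Hk2 and Gapdh stood farther from any other member, with 0.227 for Hk2 to Ldha and 0.286 for Gapdh to Hk1. The mean profile of the members was 0.17 and 0.02 in the WT against -0.13 and -0.18 in the STAT3KO libraries of CD4 T cells, and 0.22 and 0.11 in the WT against -0.08 and -0.13 in the STAT3KO libraries of CD8 T cells (log2 CPM relative to the mean). Among 8824 genes compared, with a median difference of 0.259, the non-members nearest to that mean profile were Thrap3 (0.03), Rprd1b (0.0461), Atxn7l3 (0.0487), Eefsec (0.0504) and Prkcsh (0.051).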

How the data were processed

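RNA was measured in 8 libraries of sorted splenic donor T cells, grouped by cell type and genotype from the labels. Per the study's methods, the authors sequenced 51-base single-end reads, aligned them to mm10 with STAR and counted them per RefSeq gene with HTSeq. The strand setting and the handling of reads with several matches are not given in the sources used here. The methods name a stranded kit, whereas growth and library fields of the labels describe other cells and another kit and were not used. The deposited values are raw read counts per gene, not normalized, and RPKM, which the authors scaled by exon length and library size. The counts in the filtered genes were 99.96% to 99.97% of each library.

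Low genes were removed with filterByExpr (minimum count 10), and the remaining counts were scaled by TMM and fitted in edgeR 4.0.16 (R 4.3.3) with a mean per group over all 8 libraries (4 residual degrees of freedom). Genes were called at a Benjamini-Hochberg adjusted p under 0.05 over 12428 genes (quasi-likelihood test, two-sided), and standard errors were derived from its F statistic. DESeq2 1.42.0, RLE size factors, total counts, no filter, limma 3.58.1 on log2(RPKM + 1) and log2(RPKM + 0.1), the replicate number as a block, 4-library fits and leaving out each library were the alternatives. Likeness used log2(CPM + 0.5) over the 8 libraries, for genes averaging 3 or more on that scale. Shared windows and exon overlaps came from GENCODE M21 (GRCm38). The edgeR script was tested on simulated counts. The standard errors include the spread between libraries, and the floor of 3 counts covers counting error only.

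The members and gene lists were chosen with earlier results of these data known. Named beside the members were Stat3, Cd4 and Cd8a, a set of isozymes (Hk3, Pfkm, Aldoc, Tpi1, Pgam1, Eno1, Ldhb), transporters and regulators (Slc2a1, Slc2a3, Slc16a1, Slc16a3, Hif1a, Myc, Pfkfb3, Pdk1), and up to 3 called genes per direction of each list with the largest change in a comparison. Adpgk was named beyond that rule after its values were seen.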

Additional observations from a re-analysis of the deposited data

How the results depend on the processing

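Of 940 alternative values of single members, 838 kept direction and side of the threshold, 32 gained a call, 40 lost one and 30 changed sign, and beyond the smaller number of libraries in some fits the cause was not tested. In CD4 T cells the 2 members lower in STAT3KO became 3 by DESeq2 (adding Aldoa), 0 in the 4-library fit and 0 to 2 with a library left out (0 without either STAT3KO CD4 library, 1 without any one WT library, which was Hk2 without the second WT CD4 library). In CD8 T cells 0 became 4 by DESeq2, 2 with total counts, 2 with no filter, and 0 to 1 with a library left out (1, Hk2, without either WT CD4 library). The 4 averaged calls became 6 by DESeq2 and by limma with pseudocount 1 (adding Gpi1 and Pfkp), 5 by limma with pseudocount 0.1 (adding Pfkp), and were 2 to 4 with a library left out (2 without the second STAT3KO CD4 library). For CD8 against CD4 in WT, 2 became 1 with no filter, 0 with 4 libraries and 0 to 1 with a library left out (0 without either WT CD8 library or the second WT CD4 library), and the averaged 2 became 3 by DESeq2 (adding Ldha) and 1 to 2 with a library left out (1 without any one library but the first WT CD4 library). The level order kept 6 of 10 ranks once divided by unshared windows, an alternative chosen after seeing the data.

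Over all genes, 257 calls in CD8 T cells became 885 by DESeq2, 454 with no filter, 37 with 4 libraries and 7 to 224 with a library left out. The 1444 calls in CD4 became 412 to 1307 with a library left out, the averaged 2399 became 1214 to 2165, the 2960 for CD8 against CD4 in WT became 1919 with 4 libraries and 1546 to 2598 with a library left out, and the 1555 in STAT3KO became 457 to 1554. The interaction called 0 genes, 190 by DESeq2, 44 with no filter and 13 by limma with pseudocount 1.

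The replicate block treats same-numbered libraries as pairs. Their deviations from the group means correlated across genes (r 0.44 to 0.712 over 6 pairs of groups), and the library numbers in the sample titles run in 1 series for number 1 and in another for number 2. The labels do not say what these series mark (a day, a preparation or a run), so the block is given as an alternative. With the block, members lower in STAT3KO were 4 in CD4 (13.7% of genes lower), 5 in CD8 (7.89%) and 6 on average (17.9%), the last adding Gpi1 (adjusted p = 0.014) and Pfkp (0.0155). For averaged CD8 against CD4 it called 5 members higher and 1 lower, 6 in all, beside 50.2% of genes called in either direction. The lower member was Gapdh (-0.57, adjusted p = 0.00344), which was also called in WT (-0.63, adjusted p = 0.0139). Calls of all genes became 3747 in CD4, 2258 in CD8, 4874 on average, 403 for the interaction, and 5232, 3689 and 6242 for CD8 against CD4 in WT, in STAT3KO and averaged.

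Signs changed for uncalled values. Pkm in WT CD8 against CD4 was -0.00771 with no filter, -0.00851 and -0.00854 by limma (pseudocounts 1 and 0.1), and -0.0508 to 0.0327 with a library left out. With a library left out, STAT3KO against WT ranged in CD4 from -0.22 to 0.16 for Hk1 and -0.11 to 0.28 for Pfkl. In CD8 it ranged from -0.24 to 0.0503 for Hk1, -0.10 to 0.19 for Pfkl, -0.63 to 0.24 for Gapdh and -0.24 to 0.0164 for Pgk1, and on average from -0.16 to 0.024 for Hk1 and -0.0319 to 0.16 for Pfkl. CD8 against CD4 ranged in WT from -0.31 to 0.0889 for Hk1, -0.13 to 0.0297 for Gpi1 and -0.27 to 0.14 for Pfkl, in STAT3KO from -0.0289 to 0.23 for Pkm, and on average from -0.19 to 0.0157 for Pfkl and -0.0203 to 0.11 for Pkm. The isozyme shares kept their sign under raw counts and without either replicate number. Gapdh, with the fewest counts, had the widest error.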

Other observations

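The retrogene copies of Aldoa, Aldoart1 and Aldoart2, known from the testis, were singled out after their values were seen. They held 198 to 337 and 137 to 249 counts per library, where Aldoa held 5187 to 8320. Aldoart1 was between 3.61% and 4.08% of the Aldoa counts in every library and Aldoart2 between 2.43% and 2.99%. Aldoart1 is the gene that shares the most 51-base windows with Aldoa. Whether reads from Aldoa were counted for the copies was not tested. The averaged log2 fold change of STAT3KO against WT was -0.34 ± 0.09 for Aldoart1 (edgeR adjusted p = 0.0421) and -0.33 ± 0.14 for Aldoart2 (adjusted p = 0.134), beside -0.30 ± 0.07 for Aldoa.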
